A study of Rattus norvegicus with 8 samples.

Results

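The genes studied here encode the leptin receptor (Lepr), the insulin receptor (Insr), the insulin-like growth factor 1 receptor (Igf1r) and orexin receptor 2 (Hcrtr2), through which the hypothalamus reads hormones and a local peptide that bear on feeding, body weight and wakefulness. They were taken as every polyadenylation site that the table assigned to 1 of these 4 symbols, which gave 34 of 73922 sites and 4 of 12255 genes. Hypothalamic RNA came from 8 adult male rats of the Long-Evans strain, an outbred line. The 4 control rats were kept on standard chow with 0.51 kcal/g from fat, and the 4 rats with diet-induced obesity had free access to a high fat diet with 1.71 kcal/g from fat. Tissue was taken after 36 days on the diets, and no drug or genetic change was named for either group. Whole transcriptome termini site sequencing (WTTS-seq), which counts the 3′ ends of polyadenylated RNA, gave 1 library per rat.

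Leptin is released by fat tissue and binds Lepr, a cytokine-type receptor that signals through the kinase Jak2 and the transcription factor Stat3, and in the arcuate nucleus it restrains food intake. Insulin and the insulin-like growth factors bind the related receptor tyrosine kinases Insr and Igf1r, which phosphorylate the Irs adaptors and so activate phosphoinositide 3-kinase and Akt. The orexins are made by neurons of the lateral hypothalamus and bind the G protein-coupled receptors Hcrtr1 and Hcrtr2, the latter being prominent on the histamine neurons that promote waking. A gene can end its transcripts at several sites, and a site far upstream of the last one can yield a shortened RNA.

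The libraries held 1417531 to 1957726 reads. The 4 receptors together took 2490 of 13341135 reads (0.0187%), and Igf1r alone held 72.2% of these. Control library 1 and obesity library 1 had 14788 and 10659 sites at 0 reads, against 4062 to 6622 in the other libraries. Of 20 hypothalamic marker genes 17 were measured, and Npy, Nr5a1 and Vip were not among the measured genes. Of these 17, 5 had an unadjusted p under 0.05 in edgeR, 2 higher and 3 lower in obesity (29.4%, against 5.12% of all genes). The groups did not overlap for 4, 2 higher and 2 lower in obesity (23.5%, against 3.45%). At an adjusted p under 0.1, 0 were called. The log2 fold change was below 0 for 10 of 11 oligodendrocyte, 8 of 10 astrocyte and 5 of 6 tanycyte or ependymal genes. It was below 0 for 6 of 11 neuronal, 4 of 10 endothelial, pericyte or meningeal and 2 of 4 microglial genes, and above 0 for 50.1% of all genes. Without obesity library 1 the median moved from -0.18 to -0.09 for oligodendrocyte genes and from -0.21 to -0.11 for astrocyte genes. The part of these differences in the receptor values was not tested. In whole tissue, fewer cells of a type and less RNA per cell cannot be told apart.

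Igf1r had the highest level of the 4 receptors in every library. Levels are in CPM, here reads of the gene divided by the TMM-adjusted total of gene-assigned reads, which counts 3′ ends and is not divided by transcript length. Over the control libraries the mean was 142.6 ± 18.0 CPM (SD, n = 4) for Igf1r, 24.8 ± 1.54 for Insr, 18.8 ± 4.61 for Lepr and 6.68 ± 3.17 for Hcrtr2. Igf1r was above Insr, and both Insr and Lepr were above Hcrtr2, in 8 of 8 libraries. Insr and Lepr were closer, and Lepr was the higher of the pair in 1 of 8 libraries. Among all genes, the mean level of Igf1r stood at the 91.1 percentile, that of Insr at 63.0, that of Lepr at 50.6 and that of Hcrtr2 at 25.1.

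**Figure D1:**
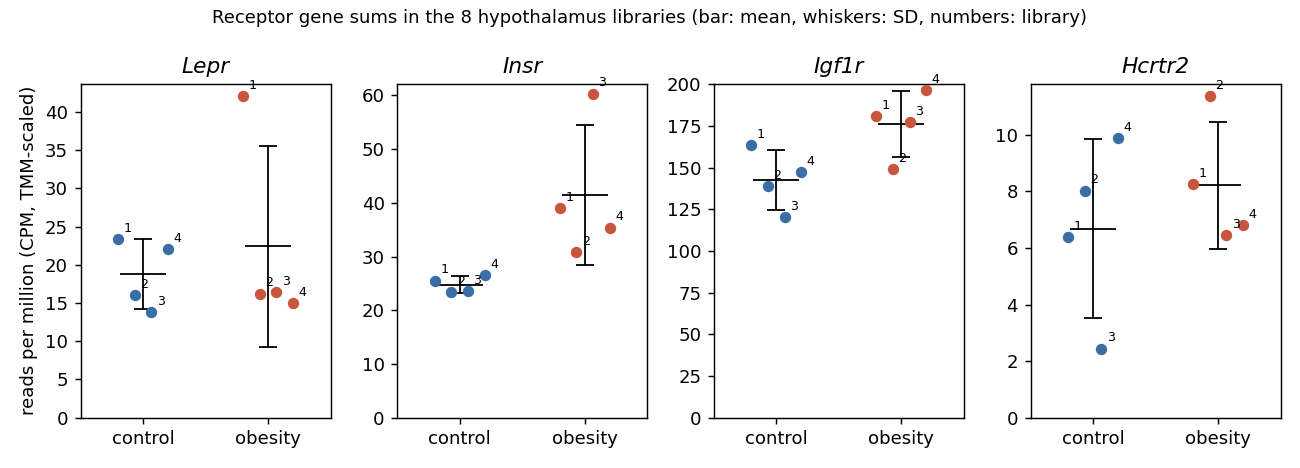
Level of each receptor gene in CPM (vertical axis, linear, from 0) in the 4 control and 4 obesity libraries, numbered as in the labels, with the mean as a bar and the SD as whiskers. Insr is the gene whose groups do not overlap, and the Lepr value of 42.1 CPM in obesity library 1 lies apart from 15.0 to 16.4 CPM in the other obesity libraries.

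The question of the comparison was whether the level of each receptor differed between obesity and control. At an adjusted p under 0.1 in edgeR, 0 of the 4 genes were called, as were 0 of all 12255 genes (0%). At an unadjusted p under 0.05 there was 1 receptor, Insr, against 5.12% of all genes. By DESeq2, 4 genes of the table (0.0326%) passed the adjusted threshold, and with the library number as a block 34 (0.277%) did, but in each fit 0 of the receptors did. All 4 fitted log2 fold changes were above 0, where 50.1% of all genes were.

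Insr was higher in every obesity library than in any control library. The gene is on chromosome 12. It had 36, 35, 29 and 35 reads in control libraries 1 to 4, or 25.5, 23.4, 23.6 and 26.6 CPM. In obesity libraries 1 to 4 it had 52, 38, 103 and 52 reads, or 39.1, 30.8, 60.3 and 35.4 CPM. The controls lay close together, obesity library 3 was the highest, and the groups did not overlap, as was the case for 3.45% of all genes. Means were 24.8 ± 1.54 CPM in control and 41.4 ± 13.1 CPM in obesity (SD, n = 4 each), a ratio of 1.67. The log2 fold change was 0.74 (SE 0.33, 95% interval 0.06 to 1.43), with an unadjusted p of 0.0358 and an adjusted p of 0.921 in edgeR. Without obesity library 3 the log2 fold change was 0.51 and the unadjusted p in edgeR 0.167. The SD of the controls was 6.23% of their mean, below the 17.0% that counting alone would give for that number of reads.

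Igf1r, on chromosome 1, was measured with the most reads. Control libraries 1 to 4 gave 231, 208, 148 and 194 reads (163.6, 139.2, 120.3 and 147.4 CPM). Obesity libraries 1 to 4 gave 241, 184, 303 and 289 reads (181.0, 149.4, 177.5 and 196.7 CPM). Obesity was the higher library in 4 of 4 pairs of equal number, but obesity library 2 lay below control library 1, so the groups overlapped. The means of 142.6 ± 18.0 and 176.1 ± 19.7 CPM (SD, n = 4 each) gave a log2 fold change of 0.30 (SE 0.20, 95% interval -0.12 to 0.73, adjusted p 0.942, edgeR).

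Lepr, on chromosome 5, had 33, 24, 17 and 29 reads in the controls (libraries 1 to 4), and 56, 20, 28 and 22 in the obesity libraries. In CPM the controls ranged from 13.8 to 23.4. Obesity library 1 reached 42.1 CPM while the other 3 stayed at 15.0, 16.2 and 16.4 CPM, inside the control range. Means were 18.8 ± 4.61 and 22.4 ± 13.1 CPM (SD, n = 4 each), and the log2 fold change was 0.25 (SE 0.43, 95% interval -0.67 to 1.16, adjusted p 0.983, edgeR). Without obesity library 1 it was -0.25, so the direction of the Lepr difference rested on this library.

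Obesity library 1 was also the lowest of the 8 libraries for the summed level of 3 lists of glial markers. The 10 astrocyte genes summed to 2960.1 CPM there and to 4031 to 5463 CPM elsewhere, the 11 oligodendrocyte genes to 13634 CPM against 17649.5 to 23182 CPM, and the 4 measured microglial genes to 34.6 CPM against 77.3 to 129.2 CPM. The sum of the 17 hypothalamic markers was lowest there too, at 1060.6 CPM against 1129.1 to 1697 CPM. Not every marker was low, as Agrp, of the same list, was at 39.1 CPM there and at 3.25 to 14.9 CPM elsewhere. The 11 neuronal genes summed to 6675.1 CPM there and to 4279.4 to 7686.8 CPM elsewhere. The part of these marker differences in the Lepr value was not tested.

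Hcrtr2, on chromosome 8, had the fewest reads, 9, 12, 3 and 13 in the controls (libraries 1 to 4) and 11, 14, 11 and 10 in the obesity libraries. In CPM this was 6.38, 8.03, 2.44 and 9.88 in control and 8.26, 11.4, 6.44 and 6.81 in obesity. Control library 3 was the lowest and the groups overlapped. Means were 6.68 ± 3.17 and 8.22 ± 2.24 CPM (SD, n = 4 each), with a log2 fold change of 0.28 (SE 0.62, 95% interval -1.03 to 1.60, adjusted p 0.988, edgeR). The interval runs from 0.489 to 3.04 times the control level, so these libraries leave the size and the direction of a difference undetermined. The 5 other measured markers of histamine neurons summed to 293.4 to 335.9 CPM in control and 352.3 to 415.9 CPM in obesity. Most of that sum was Slc35f1, and Hdc, the enzyme that makes histamine and the defining gene of the list, was at 3.25 ± 1.80 and 2.84 ± 3.42 CPM (SD, n = 4 each) and at 0 in obesity library 4. Their part in the Hcrtr2 values was not tested.

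The 34 sites were spread unevenly over the 4 genes. Igf1r had 21 sites over 283.7 kb of the plus strand of chromosome 1, a number of sites that 3.67% of all genes reached. Insr had 8 sites over 109.6 kb of the minus strand of chromosome 12, Lepr 3 over 65.6 kb of the plus strand of chromosome 5, and Hcrtr2 2 over 96.9 kb of the minus strand of chromosome 8, where the median gene had 2 sites. Within each span and for 30 kb on either side the table held 0 sites of any other gene or of no gene, on either strand. Sites are numbered here from 5′ to 3′ within a gene, with positions on the Rnor_6.0 assembly as deposited. Whether a site lay in an exon, an intron or an untranslated region was not determined here.

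**Figure D2:**
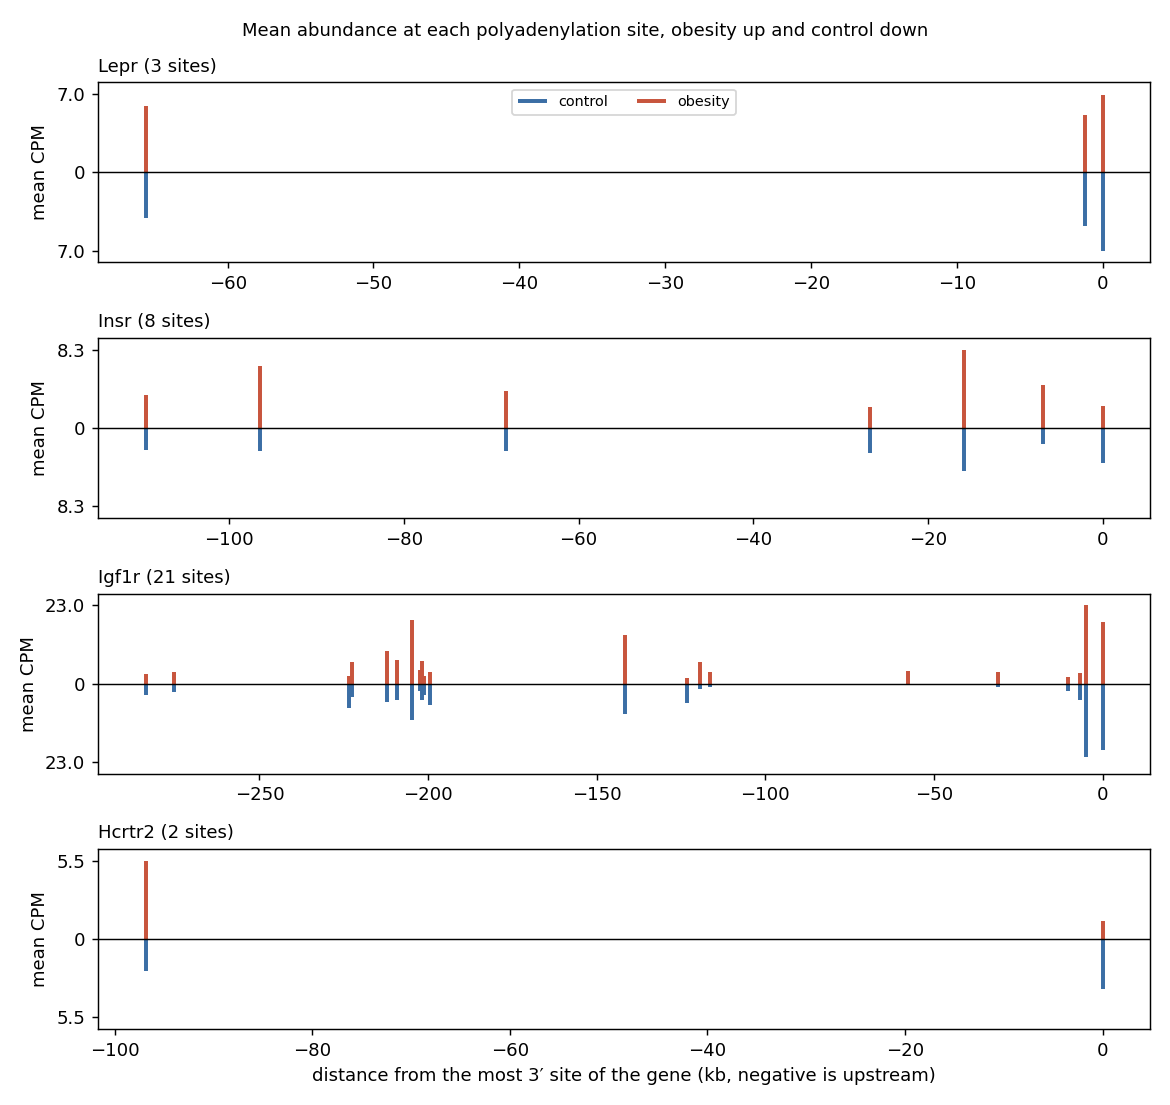
Mean CPM at each site of the 4 genes (n = 4 libraries per group; obesity drawn upward, control downward, each gene with its own scale) against the distance in kb from the most 3′ site of the gene. Igf1r sites form a cluster about 200 kb upstream and a strong pair at the 3′ end, and Insr sites 1 and 2 lie too close to be drawn apart.

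Single sites rested on few reads, with a median of 52 over all 8 libraries, and 20 of the 34 sites had a read in every library. The CPM of a site is scaled to all reads of the table, so site values do not add up to the gene levels above. At an adjusted p under 0.1 in edgeR 0 of 34 sites were called, against 1 of 73922 (0.00135%). At an unadjusted p under 0.05, 0 of 34 sites passed, against 3.14% of all sites. DESeq2 gave no adjusted p to most of the 34 sites, among them Igf1r site 13 and both Hcrtr2 sites, so these could not be called. It called 0 of the 34 at the adjusted threshold, and 0.0135% of all 73922 sites, with or without an adjusted p. The fitted log2 fold change was above 0 at 22 sites (64.7%) and below 0 at 12, where 52.4% of all sites were above 0. Groups did not overlap at 2 of 34 sites (5.88%), against 3.11% of all sites.

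The first of these was the upstream site of Hcrtr2. Hcrtr2 site 1 (chromosome 8, minus strand, 83407632 to 83407663) had 3, 4, 3 and 4 reads in the controls (libraries 1 to 4) and 10, 9, 9 and 10 in the obesity libraries. Each obesity library had more reads here than any control library. Means were 2.21 ± 0.39 and 5.51 ± 0.70 CPM (SD, n = 4 each), a ratio of 2.50. The fit gave a log2 fold change of 1.29 (SE 0.74, 95% interval -0.28 to 2.87) with an unadjusted p of 0.1001 and an adjusted p of 1.00 (edgeR).

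Hcrtr2 site 2, the most 3′ site (83310775 to 83310790), went the other way in its values. It had 6, 8, 0 and 9 reads in the controls (libraries 1 to 4) and 1, 5, 2 and 0 in the obesity libraries. Control library 3 had no read there, obesity library 2 lay above control library 1 in CPM (3.46 against 3.38), and the groups overlapped. At the adjusted p of 1.00 the log2 fold change of -1.46 (SE 1.24, edgeR) was not distinguishable from 0. The fitted differences at the Hcrtr2 sites thus had opposite signs.

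The second site without overlap was Igf1r site 13 (chromosome 1, plus strand, 129090571 to 129090577), 123.2 kb upstream of the last Igf1r site. It had 11, 8, 9 and 8 reads in the controls (libraries 1 to 4) and 4, 2, 1 and 5 in the obesity libraries. All obesity libraries lay below the controls, against the direction of the Igf1r sum. Means were 5.67 ± 0.90 and 1.74 ± 1.01 CPM (SD, n = 4 each), with a log2 fold change of -1.66 (SE 0.81, 95% interval -3.40 to 0.07), an unadjusted p of 0.0591 and an adjusted p of 1.00 (edgeR). The unadjusted p by DESeq2 was 0.0467, with no adjusted p given, and 3.83% of all sites had an unadjusted p under 0.05 by DESeq2.

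The Igf1r sites with most reads over the 8 libraries were the last pair, sites 20 and 21, although in obesity site 7, at 18.6 ± 10.4 CPM (SD, n = 4), was level with site 21. Igf1r site 20 (129208927 to 129208938) was at 21.7 ± 6.49 CPM in control and 23.0 ± 12.3 CPM in obesity (SD, n = 4 each). Igf1r site 21 (129213794 to 129213824) was at 19.5 ± 5.60 and 18.2 ± 4.05 CPM (SD, n = 4 each). Neither differed beyond the spread of its libraries, with log2 fold changes of 0.08 (SE 0.46) and -0.09 (SE 0.41, edgeR). A grouping chosen after the values were seen, and so given with no test, put the 19 upstream sites at 80.4 ± 11.2 CPM in control and 103.6 ± 27.1 CPM in obesity, and the last 2 at 41.2 ± 4.86 and 41.3 ± 11.6 CPM (SD, n = 4 each). The upstream sum was highest in obesity libraries 3 and 4, at 118.4 and 131.7 CPM, and obesity library 2, at 70.6 CPM, lay inside the control range of 65.3 to 92.2 CPM.

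For Insr, 6 of 8 sites had log2 fold changes above 0. The grouping used for Igf1r, again with no test, put the 6 upstream sites at 15.8 ± 3.10 CPM in control and 27.4 ± 13.6 CPM in obesity. The last 2 were at 5.35 ± 2.22 and 6.87 ± 3.55 CPM (SD, n = 4 each). The upstream sum of obesity library 2, 14.5 CPM, lay inside the control range of 11.5 to 18.4 CPM. Insr site 6 (chromosome 12, minus strand, 1696806 to 1696819), the site with most reads, had 5, 8, 4 and 12 reads in the controls (libraries 1 to 4) and 14, 3, 27 and 17 in the obesity libraries. Obesity library 2 was the lowest of all 8 libraries there, so the groups overlapped. The log2 fold change was 0.86 (SE 0.69, unadjusted p 0.228, edgeR). Insr site 8, the most 3′ site (1680983 to 1680984), had 8, 7, 4 and 5 reads in control and 2, 6, 6 and 2 in obesity, with a log2 fold change of -0.64 (SE 0.86, edgeR), below 0 while the gene sum was above.

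Lepr site 3 (chromosome 5, plus strand, 120652404 to 120652414) was both the most 3′ Lepr site and the one with most reads. It had 12, 12, 8 and 13 reads in the controls (libraries 1 to 4) and 5, 9, 20 and 15 in the obesity libraries. Obesity library 1, with the highest Lepr sum, had the fewest reads at this site, and its 51 other Lepr reads lay at sites 1 and 2. Means were 7.02 ± 1.12 and 6.90 ± 3.14 CPM (SD, n = 4 each), with a log2 fold change of -0.02 (SE 0.59, edgeR).

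**Figure D3:**
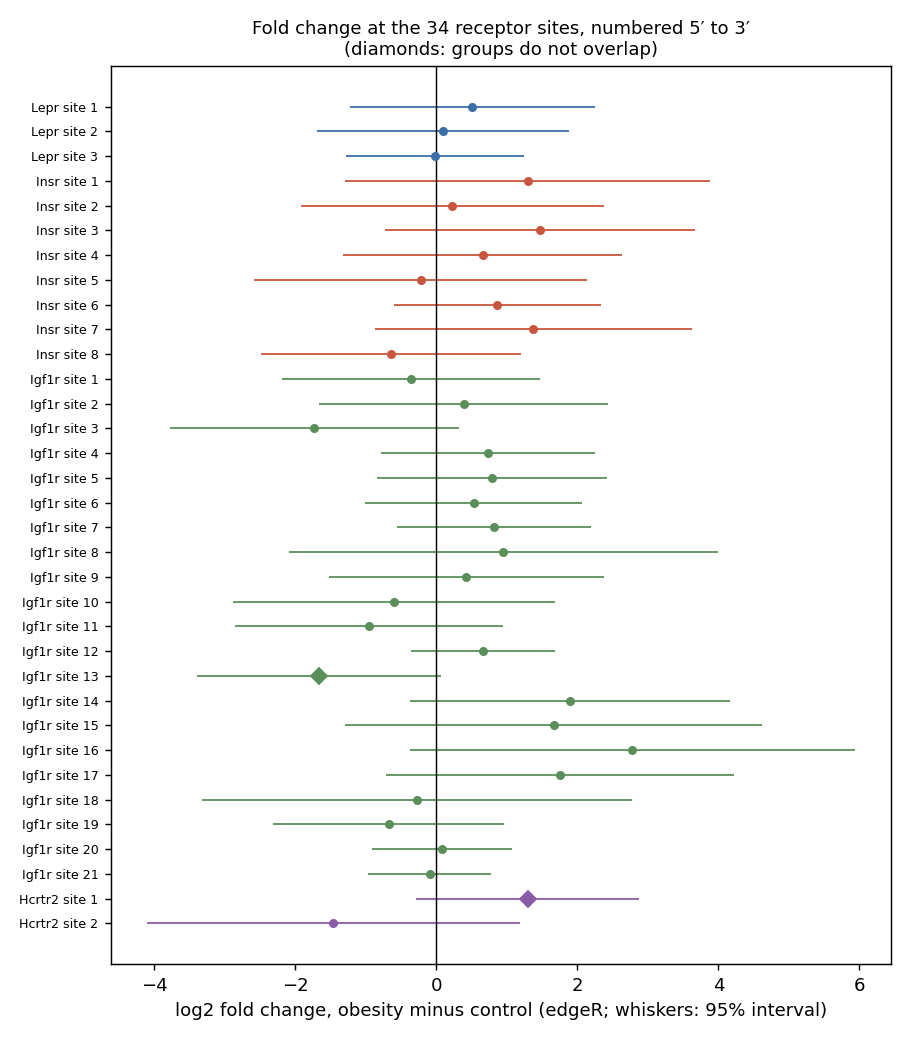
Log2 fold change, obesity minus control, with its 95% interval from edgeR at each of the 34 sites (n = 4 libraries per group), numbered 5′ to 3′ and coloured by gene. Every interval includes 0, and the diamonds mark Igf1r site 13 and Hcrtr2 site 1, where the groups do not overlap.

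Whether the sites of a gene moved relative to one another was tested for the 7996 genes with several sites. By diffSpliceDGE of edgeR, the adjusted p was under 0.1 for 0 of the 4 receptors and for 0 of 7996 genes (0%), and at an unadjusted Simes p under 0.05 there were 0 receptors and 1.39% of all genes. The unadjusted Simes p was 0.256 for Hcrtr2, 0.441 for Igf1r, 0.903 for Insr and 0.931 for Lepr.

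The share of a gene's reads that ended at its most 3′ site was compared by 2-sided exact permutation over the 70 arrangements of the libraries, where the smallest possible p is 0.0286. For Insr the share was 22.2, 20, 13.8 and 14.3% in the controls (libraries 1 to 4) and 3.85, 15.8, 5.83 and 3.85% in the obesity libraries. In 4 of 4 pairs of equal number the obesity library had the lower share, and the groups overlapped only through obesity library 2. Means were 17.6 ± 4.19% and 7.33 ± 5.72% (SD, n = 4 each), a difference of -10.2 percentage points with an exact p of 0.0857, or 0.381 adjusted over the 8 shares tested. Leaving out obesity library 2 removes the overlap by construction, so the p is then the smallest possible and carries no further information. The difference was then -13.1 points, and the exact p was 0.0857 to 0.114 when any other library was left out.

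For Hcrtr2 the share at the most 3′ site was 66.7, 66.7, 0 and 69.2% in the controls (libraries 1 to 4) and 9.09, 35.7, 18.2 and 0% in the obesity libraries. Control library 3, with 3 reads in the gene, was the exception among the controls. The means of 50.6 ± 33.8% and 15.7 ± 15.2% (SD, n = 4 each) differed by -34.9 percentage points, with an exact p of 0.143 and an adjusted p of 0.381. Leaving out control library 3 likewise separates the groups by construction, with a difference of -51.8 points, and the exact p was 0.143 to 0.257 when any other library was left out. For a single library these shares are loose, for example an exact 95% binomial interval of 29.9 to 92.5% for the 6 of 9 reads of control library 1, and such intervals cover counting error only.

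Igf1r and Lepr differed less. The share of Igf1r site 21 had a mean of 16.4 ± 6.21% over controls and 12.7 ± 2.90% over obesity libraries (SD, n = 4 each, exact p 0.371), a difference of -3.71 points that was -0.62 without control library 3. That of Lepr site 3 was 44.6 ± 5.86% and 48.4 ± 28.8% (SD, n = 4 each, exact p 0.943). The obesity libraries spread from 8.93% in library 1 to 71.4% in library 3 for Lepr, while the controls stayed between 36.4 and 50.0%. The shares of the sites with most reads were also tested, and for Igf1r the exact p was 0.886 and for Insr the means were 21.2% in control and 23.4% in obesity. These sites were Lepr site 3 and Hcrtr2 site 1 in the other 2 genes, so 2 of the 8 tests repeat others.

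**Figure D4:**
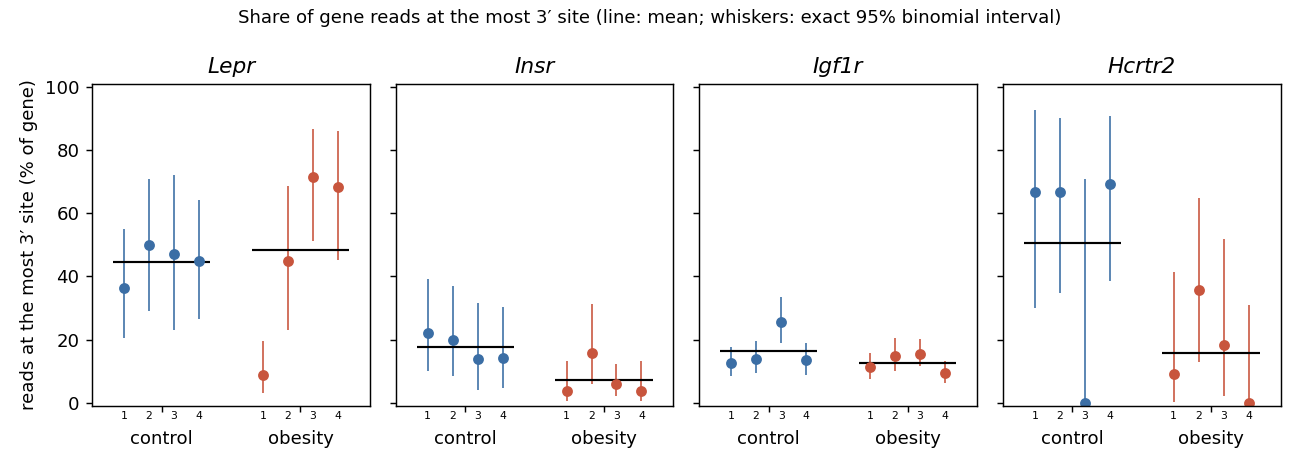
Percent of each gene's reads at its most 3′ site in every library (points, numbered as in the labels) with exact 95% binomial intervals as whiskers and the group mean as a line. The Insr and Hcrtr2 means are lower in obesity (7.33% and 15.7%) than in control (17.6% and 50.6%), and the adjusted p is 0.381 for both.

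The other genes of the receptors' pathways were taken from 6 lists, with 77 of 96 listed genes measured. At an adjusted p under 0.1, 0 of these 77 passed in either direction, whether the edgeR fit had the block or not. Of the 77, 4 had an unadjusted p under 0.05, 3 with a positive and 1 with a negative difference (5.19%, against 5.12% of all genes). The log2 fold change was above 0 for 48 (62.3%), against 50.1% of all genes. The groups did not overlap for 3 genes (3.90%, against 3.45%).

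Of the ligands, leptin (Lep) and the insulin genes (Ins1 and Ins2) were listed but were not among the measured genes. The listed genes Socs3 and Insrr were not measured either. Igf2, a growth factor that also binds Insr, was lower in obesity in 4 of 4 pairs, at 16.9 ± 9.79 CPM in control and 5.14 ± 3.73 CPM in obesity (SD, n = 4 each). The groups overlapped, as obesity library 2, at 9.74 CPM, lay above control library 1, at 7.08 CPM. The fitted log2 difference of Igf2 was -1.70 (SE 0.65, adjusted p 0.921, edgeR). Igf1 was at 3.17 ± 2.05 and 3.07 ± 1.54 CPM, and Hcrt, the orexin precursor, at 13.6 ± 6.80 and 12.5 ± 6.24 CPM (SD, n = 4 each). The median log2 fold change was -0.20 over the 7 measured insulin and IGF ligands and binding proteins, of which 1 was above 0.

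Of the related receptors, Hcrtr1 was at 8.57 ± 4.07 CPM in control and 8.08 ± 4.88 CPM in obesity, and Igf2r, which takes up Igf2 for degradation, at 5.75 ± 5.14 and 5.33 ± 3.75 CPM (SD, n = 4 each). Hcrtr1 and Hcrtr2 thus lay within each other's spread in both groups. Il6st, the shared gp130 subunit of cytokine receptors related to Lepr, had a log2 fold change of -0.73 (SE 0.46, edgeR). Leprot, which shares its promoter region with Lepr, was at 64.9 ± 5.24 and 59.0 ± 25.6 CPM (SD, n = 4 each), and obesity library 1 was its highest library too, at 90.9 CPM.

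Among the signaling genes, the leptin kinase Jak2 was at 44.5 ± 8.19 CPM in control and 47.1 ± 12.4 CPM in obesity, and Stat3 at 33.2 ± 8.12 and 42.3 ± 10.6 CPM (SD, n = 4 each). The insulin receptor substrates had log2 fold changes of 0.35 for Irs1, 0.17 for Irs2 and -0.09 for Irs4. The receptor-binding regulators Ptpn1, a phosphatase, and Sh2b1, an adaptor, had -0.40 and 0.27. Grb10, an adaptor that binds and restrains Insr, was higher in obesity without overlap, at 44.9 ± 2.77 and 62.0 ± 17.7 CPM (SD, n = 4 each, adjusted p 0.928, edgeR).

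Pik3r2, a regulatory subunit of phosphoinositide 3-kinase, had 14.2, 12.7, 11.4 and 5.32 CPM in the controls (libraries 1 to 4) and 38.3, 18.7, 48.6 and 17.0 CPM in the obesity libraries, again without overlap. Its log2 fold change was 1.49 (SE 0.46, adjusted p 0.921, or 0.160 with the block, edgeR). Downstream of the orexin receptors, Gnaq, the G protein subunit that couples to phospholipase C, had a log2 fold change of 0.87 (SE 0.39) and the protein kinase C gene Prkce one of 0.47 (SE 0.21), each with an adjusted p of 0.921 (edgeR). The median log2 fold changes were 0.09 for the 13 other leptin genes, 0.27 for 17 receptors and adaptors, 0.16 for 25 kinases and targets, 0.13 for 15 orexin genes and 0.21 for 7 receptors related to Lepr. Without obesity library 4 the last of these was -0.15 and that of the ligands and binding proteins 0.02, so the direction of both rested on that library. The 3 measured marker genes of the choroid plexus summed to 167.4 CPM in obesity library 4 and to 27.6 to 71.4 CPM elsewhere. The part of this marker difference in the medians was not tested.

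**Figure D5:**
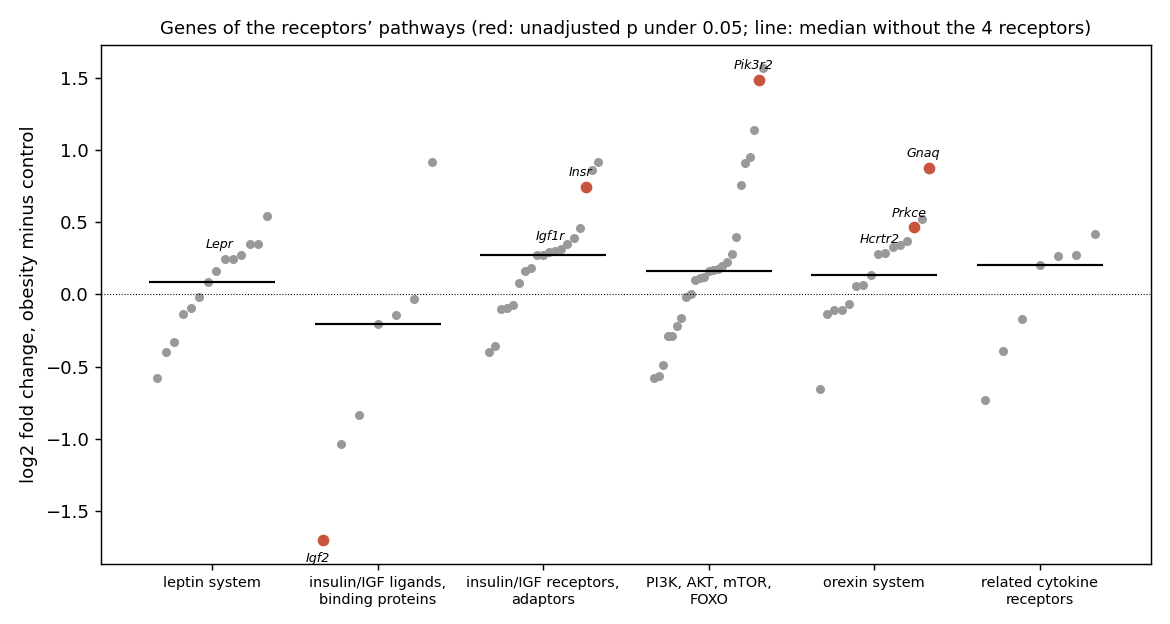
Log2 fold change, obesity minus control, of the measured genes in the 6 pathway lists (points; some genes are in more than 1 list), with the list median without the 4 receptors as a line. Insr is among the 5 genes with an unadjusted p under 0.05, drawn in red, and Igf2 is the 1 of these below 0.

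The receptors were also compared with one another and with 8301 genes of at least 10 CPM by the Pearson correlation of log2 CPM over the 8 libraries. These values are descriptions, since the points share libraries, depth and diet group. Insr and Igf1r had the highest correlation among the 6 pairs of receptors (r = 0.70, rho = 0.81), and the other 5 pairs had r of 0.15 to 0.39. For Lepr the closest genes were LOC681292 (r = 0.95), LOC103692037 (r = 0.95) and Agrp (r = 0.94). Agrp, the appetite-stimulating peptide of arcuate neurons, had 14.9, 6.02, 3.25 and 9.88 CPM in the controls (libraries 1 to 4) and 39.1, 5.68, 10.5 and 7.49 CPM in the obesity libraries. Obesity library 1 was the highest and control library 3 the lowest for both genes.

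For Insr the closest were LOC102547242 (r = 0.96), Patl1 (r = 0.95), a factor of mRNA decay, and Aff3 (r = 0.93). Patl1 was highest in obesity library 3, at 72.0 CPM, as Insr was. For Igf1r they were Arhgap18 (r = 0.98), Cntnap2 (r = 0.97), a neuronal cell adhesion gene, and Btbd7 (r = 0.97). For Hcrtr2 they were Plch1 (r = 0.99), a phospholipase C, Anp32b (r = 0.94) and LOC100365259 (r = 0.94). A correlation above 0.9 was reached by 17 genes for Lepr, 15 for Insr, 47 for Igf1r and 7 for Hcrtr2. The named genes are the highest of 8301 correlations, or 8302 for Hcrtr2, over only 8 libraries, so high values can arise from this selection. How many genes would pass 0.9 by chance was not tested, and shared regulation cannot be read from these values.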

How the data were processed

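WTTS-seq libraries from the hypothalamus of 8 rats (4 control, 4 obesity, grouped by the labels) were analysed. The deposited table gives, for each site, the raw count of reads in each library, and the authors applied no normalization to it. Per the labels, the processing notes name Rnor_6.0 and Bowtie2 2.2.3, and other steps are not given in the sources used here. Libraries held 1417531 to 1957726 reads. The lowest site total was 30 reads, so the minimum of 16 reads removed 0 sites. A line without a site (1), holding a column total, was left out. Reads primed inside A-rich RNA were not separated from true 3′ ends, and the reads carry no molecular identifiers. The members and gene lists were chosen with earlier results of these data known.

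Site counts, and gene sums over the strand with most reads, were fitted over all features by edgeR 4.0.16 in R 4.3.3 (quasi-likelihood F test, TMM, robust), with Benjamini-Hochberg adjustment and a threshold of 0.1. Site usage was tested with diffSpliceDGE. Shares of gene reads were compared by exact permutation. DESeq2 1.42.0, other scaling, filterByExpr, sums of both strands, a minimum of 100 reads per site, the replicate block and leaving out each library were alternatives. The steps were tested on simulated data. The features changed there had more reads than most receptor sites, so detection of changes at such sites was not tested.

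Named were all 4 receptors, for each the most 3′ site, the site with most reads and any site with an unadjusted p under 0.05 or without overlap between the groups. In the pathway lists, preselected ligands, receptors and adaptors and any gene passing the same criteria were named, and for each receptor the 3 genes of highest correlation with a mean of at least 10 CPM.

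Both groups carry the numbers 1 to 4. Deviations from the group means correlated at 0.224 to 0.330 between same-numbered libraries and at -0.174 to 0.0468 between others, so the numbers count as pairing the libraries, although what they have in common is not named in the labels. The reported tests were unpaired, and the block was an alternative. In pairwise chi-square comparisons the 28 values per site were 2.86 to 9.35, above sampling noise, and all libraries were counted separately.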

Additional observations from a re-analysis of the deposited data

Results flagged for a closer look

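Receptor genes, sites, shares and listed genes were checked within groups of 4 libraries, 128 checks in total. In 13 checks 1 library stood apart from the remaining 3 (Dixon's criterion). Chance would give about 6.4 for independent checks. These checks overlap and some rest on few reads, so whether 13 exceeds chance cannot be decided. Obesity library 1 accounted for 5 of the 13 and control library 3 for 4. The 4 of control library 3 were not separate events. Its Hcrtr2 shares were complementary values from 3 reads, and its Igf1r flags were the level and the share of the same site.

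In obesity library 1 the Lepr gene was at 42.1 CPM (15.0 to 16.4 in the other obesity libraries) and Lepr site 2 at 14.7 CPM (1.52 to 2.77). In the same library Jak2 was at 28.5 CPM (51.7 to 54.5), Irs1 at 9.01 CPM (19.3 to 21.1) and Irs2 at 93.9 CPM (69.4 to 73.2).

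In control library 3 Igf1r site 21 was at 27.9 CPM (16.3 to 17.1 in the other controls) and held 25.7% of the Igf1r reads (12.6 to 13.9%). The same library had 0% of its Hcrtr2 reads at the most 3′ site (66.7 to 69.2%) and 100% at the other site (30.8 to 33.3%), from 3 reads.

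Insr site 3 was at 15.7 CPM in obesity library 3 (2.80 to 4.53), and the Insr share at the most 3′ site was 15.8% in obesity library 2 (3.85 to 5.83%). Igf1r site 14 was at 5.18 CPM in control library 2 (0 to 0.734), and Igf1r site 16 at 1.98 CPM in control library 4, with 0 in the other controls.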

How the results depend on the processing

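In every alternative run, 0 receptor genes, 0 sites and 0 site usage tests passed an adjusted p of 0.1. The sign of the log2 fold change of Insr (0.51 to 0.86), Igf1r (0.24 to 0.46) and Hcrtr2 (0.02 to 0.53) stayed above 0 under all of them. For Lepr it ranged from -0.25 to 0.42 as libraries were left out, below 0 without obesity library 1. The replicate block, which treats same-numbered libraries as pairs, gave 0.16 for Lepr and 0.70 for Insr. The unadjusted p with the block (edgeR) was 0.0335 for Insr and 0.0825 for Igf1r. In that fit 10.9% of all genes had an unadjusted p under 0.05, against 5.12% without the block. The block changed no call on a receptor. It raised the calls over all genes from 0 to 34 and over all sites from 1 to 4, and DESeq2 gave 4 genes and 10 sites. Only 3 named sites changed sign. Lepr site 3 was at 0.0089 with DESeq2 size factors, 0.0081 with filterByExpr and 0.011 with DESeq2, and between -0.27 and 0.22 as libraries were left out. Igf1r site 20 was at -0.011 with the block and between -0.27 and 0.31, and Igf1r site 21 between -0.25 and 0.13. The cause was not tested.

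As libraries were left out, the difference in share at the most 3′ site ranged from -3.86 to 17.0 points for Lepr (its site with most reads is the same site), from -13.1 to -8.70 for Insr and from -51.8 to -28.7 for Hcrtr2 (28.7 to 51.8 for its other site). For Igf1r it ranged from -4.99 to -0.62, and it was -7.97 among sites with at least 100 reads. At the site with most reads it ranged from -0.86 to 7.40 for Insr and from -5.38 to 2.17 for Igf1r. The smallest possible exact p, 0.0286, arose for Insr without obesity library 2 and for Hcrtr2 without control library 3, each the library whose removal separates the groups. The other omissions gave 0.0857 to 0.114 and 0.143 to 0.257. Within pairs of equal number the exact p was 0.125, the smallest possible, for Insr and 0.25 for Hcrtr2. Without obesity library 4 the median log2 fold change turned from 0.21 to -0.15 for the receptors related to Lepr and from -0.20 to 0.02 for the ligands and binding proteins.

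The minimum of 100 reads per site left values for Igf1r only (log2 fold change 0.46). With filterByExpr, Insr site 8, Igf1r site 13 and both Hcrtr2 sites were not tested, and Igf1r was the 1 receptor with a usage test. DESeq2 gave Insr site 8, Igf1r site 13 and both Hcrtr2 sites no adjusted p. Depth limits Hcrtr2 most, with 3 to 14 reads per library.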
